A study of Mus musculus with 4 samples.

Results

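The genes examined here encode 7 costimulatory receptors of T cells: Cd28, Icos, Cd27, Tnfrsf4 (OX40), Tnfrsf9 (4-1BB), Tnfrsf18 (GITR) and Tnfrsf1b (TNFR2). They were chosen by symbol, all 7 were found among the 32285 genes of the files, and all 7 passed the filter on low counts in each test below. Their RNA was described across states of splenic T cells (Tc) in 4 single-cell RNA-Seq (scRNA-Seq) libraries of 1 mouse each. Lethally irradiated BALB/c recipients carried WEHI-3B, a mouse myelomonocytic leukemia line used as an AML model, from 10000 injected cells, and received allogeneic C57BL/6 BM on the day of transplantation and 200000 donor Tc on day 2, and spleen Tc were taken on day 23. In 2 mice the donor BM and Tc were Havcr2fl/fl, in which the TIM-3 gene carries loxP sites but no cre, and in the other 2 they were Havcr2fl/fl;E8icre/+. The E8i enhancer of the Cd8a locus drives cre in CD8+ Tc, so CD4+ Tc are not meant to lose Havcr2. The floxed allele, irradiation, leukemia and transplantation were shared by both genotypes, and no mouse without leukemia or without transplantation was compared. Values per library are given in the order Havcr2fl/fl;E8icre/+ replicates 1 and 2, then Havcr2fl/fl replicates 1 and 2.

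A naive T cell needs a costimulatory signal beside that of its antigen receptor. CD28, bound by CD80 and CD86 on antigen-presenting cells, gives it, and ICOS, a relative of CD28 that appears after activation, binds ICOS ligand. The other 5 receptors belong to the TNF receptor superfamily. They bind CD70 (CD27), OX40 ligand (OX40), 4-1BB ligand (4-1BB), GITR ligand (GITR) and TNF or lymphotoxin α (TNFR2), and signal through TRAF proteins to NF-κB. Regulatory T cells, which depend on the transcription factor Foxp3 and restrain alloreactive Tc after transplantation, are known for high OX40, GITR and TNFR2.

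On the mouse assembly GRCm38 with the GENCODE M21 annotation, Cd28 (ENSMUSG00000026012, chr1:60716800-60773359, plus strand) and Icos (ENSMUSG00000026009, chr1:60977927-61000320, plus strand) flank Ctla4 and lie 204.567 kb apart. The genes of 4 TNF receptor family members lie on chromosome 4: Tnfrsf1b (ENSMUSG00000028599, chr4:145213463-145246870, minus strand), Tnfrsf9 (ENSMUSG00000028965, chr4:150914562-150946102, plus strand), Tnfrsf4 (ENSMUSG00000029075, chr4:156013843-156016612, plus strand) and Tnfrsf18 (ENSMUSG00000041954, chr4:156026164-156028895, plus strand). Tnfrsf4 and Tnfrsf18 are neighbors, with 9.551 kb between them. Cd27 (ENSMUSG00000030336) lies at chr6:125232622-125237010 on the minus strand.

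The stretches upstream of Tnfrsf4 and Tnfrsf18 are shown because these neighbors both differed between CD4+ and CD8+ Tc and between Foxp3+ and other CD4+ Tc, and those of Tnfrsf9 because it changed most of the 7 with Foxp3 and with Tcf7. All are on the plus strand of GRCm38.p6 and read 5′ to 3′. For Tnfrsf4 and Tnfrsf18 only bases outside annotated exons are given, from chr4:156013611-156013694 and chr4:156026072-156026163. For Tnfrsf9 the 250 bases before its first RefSeq start are chr4:150919905-150920154, and 20 bases around each match before a downstream start are chr4:150927951-150927970 and chr4:150927978-150927997. All of these Tnfrsf9 stretches lie inside the annotated gene, downstream of its GENCODE start at chr4:150914562. The 250 bases lie outside exons, while the 20-base stretches were not limited to such bases. Capitals mark matches to the letters TGGAAA (NFAT), TGANTCA (AP-1) or GGG and TTCC with 3 bases between them (NF-κB).
Tnfrsf4: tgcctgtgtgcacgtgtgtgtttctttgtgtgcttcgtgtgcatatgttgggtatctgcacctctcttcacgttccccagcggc
Tnfrsf18: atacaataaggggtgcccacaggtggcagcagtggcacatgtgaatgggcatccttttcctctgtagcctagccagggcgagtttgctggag
Tnfrsf9, first start: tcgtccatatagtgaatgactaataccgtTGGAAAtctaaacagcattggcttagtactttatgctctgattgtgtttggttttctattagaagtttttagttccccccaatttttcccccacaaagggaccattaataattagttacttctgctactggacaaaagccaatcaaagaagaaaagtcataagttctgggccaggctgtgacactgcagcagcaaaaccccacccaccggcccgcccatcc
Tnfrsf9, NF-κB match: cagctGGGGATTTCCcagga
Tnfrsf9, AP-1 match: ctcagtTGAGTCAcaggtcc

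The letters were searched on both strands in the 250 bases before each RefSeq start, with 6 such windows for 5 receptors, while Cd28 and Icos had none and were not searched. The NF-κB and AP-1 letters each occurred in 1 of the 6 windows, that of the downstream Tnfrsf9 start, 43 and 15 bases before it. This window lies inside the annotated gene. In 32851 mouse promoters of the same length they occurred in 4.65% and 6.75%. The NFAT letters occurred in 2 of the 6 windows, that of the first Tnfrsf9 start and, 220 bases before the start and outside the stretch shown, that of Tnfrsf4, and in 18.6% of all, and the forkhead letters TGTTTAC in 0 of the 6 and in 3.17% of all. A match of letters is a description and does not show binding.

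The libraries held 15784 barcodes and 142576164 gene UMIs, from 1511 to 6737 barcodes per library. After filtering, 11507 cells were kept, of which 6807 lay in T cell clusters and 4700 did not. Kept barcode sequences shared between libraries numbered at most 6 for any pair. Tc were called CD8+ (4278 cells) where Cd8a or Cd8b1 gave UMIs and Cd4 none, and CD4+ (1766 cells) in the reverse case. The CD3 genes Cd3d, Cd3e and Cd3g gave 552 to 2058 CPM in the libraries' CD8+ and CD4+ Tc (a gene's UMIs relative to all UMIs of the cells summed) and 2.54 to 42.9 CPM in cells outside the T cell clusters. Havcr2 in CD8+ Tc was 58.5 and 8.07 CPM in the libraries labelled Havcr2fl/fl;E8icre/+ and 55.7 and 116 CPM in those labelled Havcr2fl/fl (adjusted p = 1.00, edgeR's quasi-likelihood test with Benjamini-Hochberg adjustment), so replicate 1 of the deleted genotype was not lower than both controls. Hemoglobin and other erythroid markers summed to 2136 to 4640 CPM in CD8+ Tc and to 188 to 5217 CPM in CD4+ Tc.

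All 7 receptors differed between CD4+ and CD8+ Tc of the same mouse. Tnfrsf4, Icos, Tnfrsf18 and Cd28 were higher in CD4+ Tc, and Cd27, Tnfrsf9 and Tnfrsf1b were higher in CD8+ Tc. The widest gap was that of Tnfrsf4, the OX40 gene, at 6.63-fold, and it ranked 2 of 10321 genes by p. Of all genes tested, 24.8% passed the same test. The median log2 difference of the 7 receptors was 1.10 and that of all genes −0.01.

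Among the CD28 family, Cd28 gave 141, 171, 176 and 123 CPM in CD8+ Tc and 319, 331, 346 and 308 CPM in CD4+ Tc. Each CD4+ value lay above each CD8+ value, and Cd28 was 2.14-fold higher in CD4+ Tc (log2 1.10, SE 0.068, adjusted p = 5.74e-08). Icos gave 61.2, 94.9, 83.3 and 67.1 CPM in CD8+ Tc and 211, 263, 254 and 240 CPM in CD4+ Tc, a 3.17-fold difference in level (log2 1.66, SE 0.070, adjusted p = 3.30e-09). In 4 of 4 mice the CD4+ Tc held the higher level of both genes. These adjusted p-values, and those below, come from edgeR's quasi-likelihood test across all genes with Benjamini-Hochberg adjustment. The mouse was a block, except in the genotype tests within CD8+ or CD4+ Tc and where a fit without the block is named.

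Among the TNF receptor family, Tnfrsf4 gave 46.9, 68.7, 46.3 and 84.2 CPM in CD8+ Tc and 355, 383, 366 and 507 CPM in CD4+ Tc (log2 2.73, SE 0.082, adjusted p = 1.95e-10). Its neighbor Tnfrsf18, the GITR gene, gave 87.0, 98.2, 107 and 146 CPM in CD8+ Tc and 292, 269, 257 and 398 CPM in CD4+ Tc, 2.81-fold higher (log2 1.49, SE 0.072, adjusted p = 9.21e-09). For both genes Havcr2fl/fl replicate 2 held the highest value in each class. Cd27, whose receptor sustains primed Tc, went the other way: it gave 301, 302, 301 and 319 CPM in CD8+ Tc and 186, 206, 174 and 171 CPM in CD4+ Tc, 1.65-fold higher in CD8+ Tc (log2 −0.72, SE 0.064, adjusted p = 2.06e-06). Its CD8+ values lay close together, and no CD4+ value reached them.

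Tnfrsf9, an activation-induced receptor best known on CD8+ Tc, gave 169, 105, 120 and 204 CPM in CD8+ Tc and 66.0, 83.8, 28.7 and 89.3 CPM in CD4+ Tc. The classes did not overlap, although the CD8+ values of different mice lay far apart, and the level was 2.13-fold higher in CD8+ Tc (log2 −1.09, SE 0.17, adjusted p = 0.000338). Tnfrsf1b gave 118, 68.0, 94.4 and 90.6 CPM in CD8+ Tc and 84.2, 63.9, 57.4 and 74.8 CPM in CD4+ Tc. Here the classes overlapped between mice, and CD8+ Tc were higher within 4 of 4 mice (log2 −0.38, SE 0.092, adjusted p = 0.00854). The Tnfrsf1b call was lost when each cell was thinned to 2000 UMIs (log2 −0.11, adjusted p = 0.668) and without Havcr2fl/fl;E8icre/+ replicate 1 (log2 −0.32, adjusted p = 0.0821), the library with its highest CD8+ value. In all tests on thinned cells the classes and gates were drawn again from the thinned UMIs. Their groups of cells thus changed together with depth.

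The comparison was repeated within subsets of Tc. With Foxp3+ cells removed from CD4+ Tc, all 7 receptors and 24.0% of all genes passed the test, with Tnfrsf4 at 2.60, Tnfrsf9 at −1.50 and Tnfrsf1b at −0.64 on the log2 scale. Between Tcf7+ Tc of both classes 6 of 7 receptors and 4.05% of all genes passed, with Tnfrsf4 at 1.68, and Tnfrsf1b did not (log2 −0.41, adjusted p = 0.319). Between Tcf7-negative Tc of both classes all 7 receptors and 19.5% of all genes passed, with Tnfrsf4 at 2.92. These 3 comparisons were added after the data were seen.

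**Figure D1:**
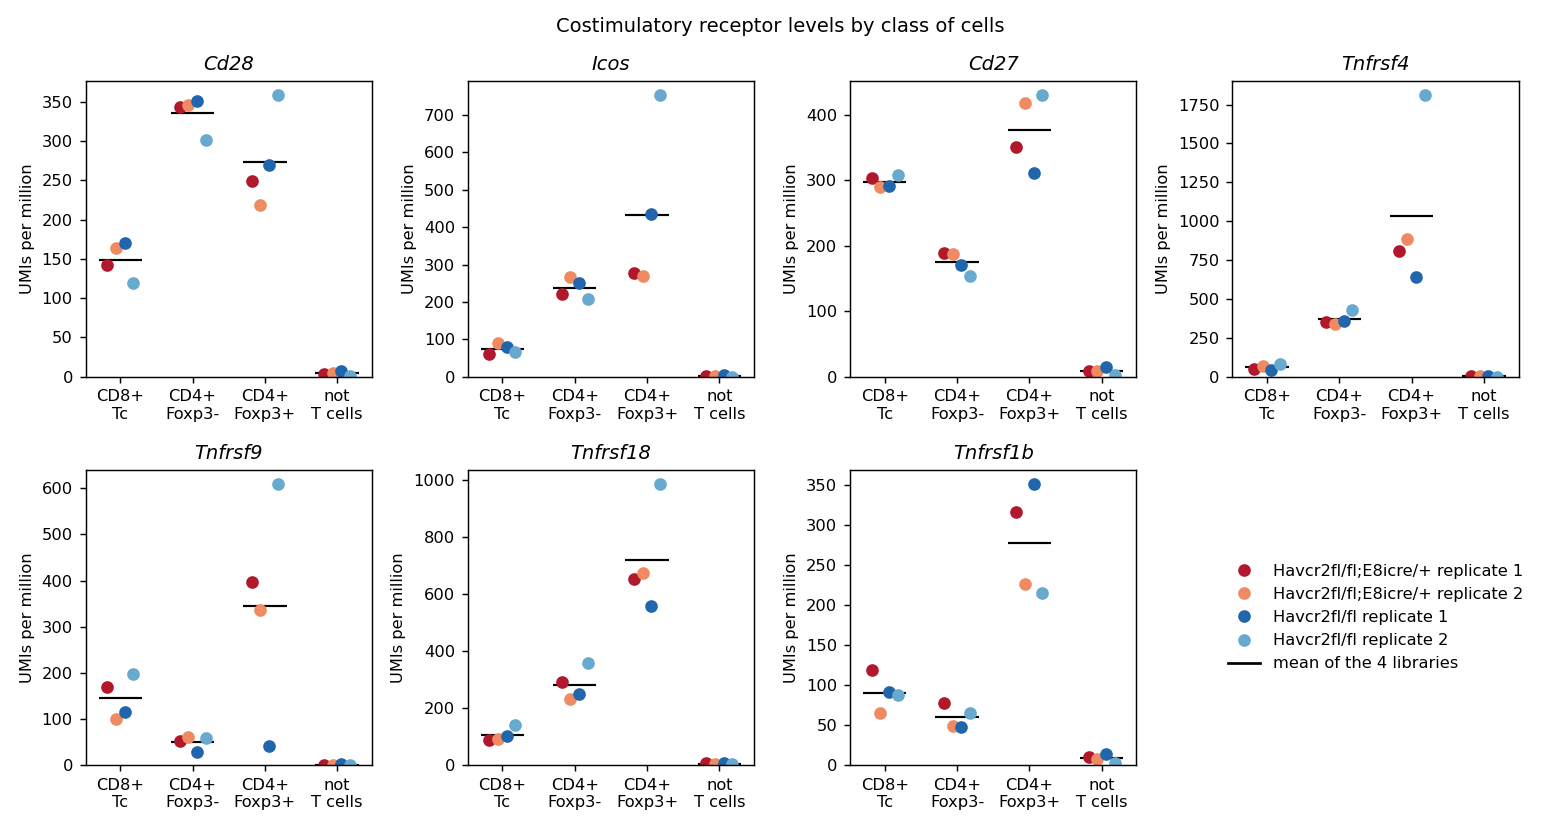
Level of each receptor (CPM, linear axes that start at 0) in CD8+ Tc, Foxp3-negative CD4+ Tc, Foxp3+ CD4+ Tc and cells outside the T cell clusters; each point is 1 library and the line is the mean of the 4. Tnfrsf4, Tnfrsf18, Icos and Cd28 lie higher in CD4+ than in CD8+ Tc, Tnfrsf9 and Tnfrsf1b are highest in Foxp3+ cells in all but 1 library of Tnfrsf9, and cells outside the T cell clusters hold means of 1.51 to 8.88 CPM.

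Foxp3+ CD4+ Tc held more RNA of all 5 TNF receptor family members than other CD4+ Tc. Tnfrsf9 was 6.01-fold, Tnfrsf1b 4.19-fold, Tnfrsf4 2.41-fold, Tnfrsf18 2.32-fold and Cd27 1.96-fold higher than in Foxp3-negative CD4+ Tc of the same mice. The 2 receptors of the CD28 family did not pass the test. Of all 6990 genes tested 7.83% passed, and the median log2 difference was 1.21 for the 7 receptors and −0.05 for all genes. The Foxp3+ arm was small, with 33, 57, 6 and 17 cells, so Havcr2fl/fl replicate 1 rests on 6 cells.

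The cells of the gate had the genes that define regulatory T cells. Ikzf2, which encodes Helios, averaged 1743 CPM, Il2ra, the CD25 gene, 539 CPM, and Ctla4 349 CPM. The CD4+ cluster with Tcf7 and Slamf6 among its leading genes held 78.0, 60.5 and 108 CPM. A Foxp3 UMI was found in 5.66% of CD4+ Tc on average, in 0.415% of CD8+ Tc and in 0.203% of cells outside the T cell clusters, with median depths of 4520, 4802.5 and 16910.5 UMIs. The median depth was 4127 UMIs in Foxp3+ cells and 4548 UMIs in Foxp3-negative CD4+ Tc, and by library the positive cells were the shallower ones in 3 of 4 mice and the deeper ones in Havcr2fl/fl replicate 1 (8841.5 against 5402 UMIs). The 5 B lineage markers summed to 484 to 721 CPM in Foxp3+ and 75.1 to 123 CPM in Foxp3-negative cells, nearly all of it Ighm, while Ms4a1 stood at 0 and Cd79a and Cd79b at 2 and 3 UMIs. Erythroid markers summed to 87.6, 6496, 166 and 26808 CPM in Foxp3+ cells and to 5113, 5094, 188 and 3500 CPM in Foxp3-negative cells, so the library with the highest Tnfrsf4 and Tnfrsf18 values also had the highest erythroid value. With erythroid-like clusters left out the log2 differences of Tnfrsf4, Tnfrsf18, Tnfrsf9 and Tnfrsf1b were 1.25, 1.19, 2.55 and 2.06. The part of these markers in the receptor levels was otherwise not tested.

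Tnfrsf9 gave 54.7, 66.7, 30.9 and 65.3 CPM in Foxp3-negative cells and 395, 347, 39.1 and 585 CPM in Foxp3+ cells (log2 2.59, SE 0.21, adjusted p = 1.38e-13). Within each mouse the Foxp3+ value was the higher, but the third Foxp3+ value, from 2 UMIs in 6 cells, lay within the range of the Foxp3-negative values. Without that library the log2 difference was 2.72. Tnfrsf1b, whose receptor binds membrane TNF and expands regulatory T cells, gave 80.2, 53.9, 52.1 and 73.2 CPM in Foxp3-negative cells and 314, 235, 333 and 207 CPM in Foxp3+ cells (log2 2.07, SE 0.20, adjusted p = 4.65e-11). Its groups did not overlap, and the 6-cell library did not stand apart.

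Tnfrsf4 gave 367, 373, 390 and 474 CPM in Foxp3-negative cells and 803, 914, 607 and 1739 CPM in Foxp3+ cells (log2 1.27, SE 0.17, adjusted p = 1.02e-07). Tnfrsf18 gave 303, 256, 270 and 400 CPM against 649, 698, 528 and 947 CPM (log2 1.21, SE 0.16, adjusted p = 9.00e-08). The groups did not overlap for either neighbor, and Havcr2fl/fl replicate 2 was highest in all 4 sets of values. Cd27 gave 196, 207, 186 and 171 CPM against 348, 433, 294 and 413 CPM, again without overlap (log2 0.97, SE 0.16, adjusted p = 2.05e-05). The Cd27 call was lost at 2000 UMIs per cell, with the Foxp3 gate drawn again from the thinned UMIs (log2 0.63, adjusted p = 0.435).

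Cd28 gave 356, 380, 381 and 334 CPM in Foxp3-negative and 247, 225, 254 and 344 CPM in Foxp3+ cells, with log2 −0.51 (SE 0.18, adjusted p = 0.0709). Icos gave 229, 293, 271 and 231 CPM against 274, 277, 411 and 723 CPM, with log2 0.52 (SE 0.19, adjusted p = 0.0860). Both overlapped between groups, and 3 of 4 mice shared the direction for each. Without Havcr2fl/fl replicate 2 the Cd28 difference passed the test (log2 −0.66, adjusted p = 0.0239), and without Havcr2fl/fl;E8icre/+ replicate 2 that of Icos did (log2 0.83, adjusted p = 0.0154).

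Compared with only those CD4+ Tc that lacked both Foxp3 and Tcf7 UMIs, the same 5 receptors and 7.27% of all genes passed, with Tnfrsf9 at 2.13, Tnfrsf1b at 1.75, Tnfrsf4 at 1.16, Tnfrsf18 at 1.00 and Cd27 at 0.84 on the log2 scale. This comparison was added after the data were seen.

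By the Tcf7 gate, 3 of the 7 receptors were higher and 2 lower with Tcf7 in CD8+ Tc, and 2 did not pass. In Foxp3-negative CD4+ Tc 0 were higher and 3 lower with Tcf7, and 4 did not pass. Tcf7 encodes TCF1, which marks precursor exhausted CD8+ Tc and memory precursors among CD4+ Tc. In CD8+ Tc with a Tcf7 UMI (627 cells) Icos was 2.10-fold, Tnfrsf4 1.90-fold and Cd28 1.81-fold higher than in the other 3651, and Tnfrsf9 was 3.11-fold and Tnfrsf1b 2.02-fold lower. Of 9665 genes 14.3% passed, and the median log2 difference of the receptors and of all genes was −0.04 and −0.00. With all libraries pooled, Tcf7+ cells had a median depth of 5442 UMIs against 4661. By library the medians were 4708, 6509.5, 6540 and 3364 UMIs in Tcf7+ cells and 4790, 6000, 7113 and 3006.5 UMIs in the others. Tcf7+ cells were thus deeper in some mice and shallower in others. They held 63.3 to 143 CPM of the B lineage markers against 35.0 to 65.8 CPM. The part of depth or of these markers in the differences was not tested.

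In Tcf7-negative and then Tcf7+ CD8+ Tc, Cd28 gave 117, 136, 165 and 111 CPM and 271, 252, 218 and 193 CPM (log2 0.86, SE 0.11, adjusted p = 2.45e-05). Icos gave 51.0, 67.5, 76.0 and 59.0 CPM and then 117, 161, 114 and 123 CPM (log2 1.07, SE 0.11, adjusted p = 5.02e-06). Neither CD28 family gene overlapped between the gates. Tnfrsf4 gave 37.8, 50.6, 46.0 and 77.2 CPM and then 98.5, 112, 41.1 and 121 CPM (log2 0.93, SE 0.16, adjusted p = 0.000713). It was higher in the Tcf7+ cells of 3 of 4 mice and slightly lower in those of Havcr2fl/fl replicate 1.

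Tnfrsf9 gave 176, 121, 134 and 210 CPM in Tcf7-negative and 67.7, 50.6, 17.8 and 45.9 CPM in Tcf7+ CD8+ Tc (log2 −1.64, SE 0.16, adjusted p = 2.16e-06). Tnfrsf1b gave 122, 74.1, 99.8 and 92.2 CPM and then 57.2, 44.2, 48.2 and 31.4 CPM (log2 −1.02, SE 0.13, adjusted p = 2.43e-05). All 4 mice had the lower value in Tcf7+ cells, without overlap, for both. Cd27 (log2 −0.08, adjusted p = 0.647) and Tnfrsf18 (log2 −0.04, adjusted p = 0.898) did not pass, with 257 to 313 CPM of Cd27 and 78.5 to 114 CPM of Tnfrsf18 in Tcf7+ cells.

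Among Foxp3-negative CD4+ Tc, 625 with and 1028 without a Tcf7 UMI, Tnfrsf9 and Tnfrsf1b were again lower in Tcf7+ cells, and so was Tnfrsf18. Of 8005 genes 5.88% passed, and the medians were −0.45 for the receptors and 0.01 for all genes. In Tcf7-negative and then Tcf7+ cells Tnfrsf9 gave 69.9, 90.7, 35.4 and 83.0 CPM and 23.3, 28.7, 18.5 and 13.2 CPM (log2 −1.63, SE 0.20, adjusted p = 7.17e-05). Tnfrsf1b gave 99.9, 63.3, 50.3 and 86.0 CPM and 38.0, 35.1, 46.3 and 29.6 CPM (log2 −0.98, SE 0.20, adjusted p = 0.00489). Neither overlapped. Tnfrsf18 gave 329, 281, 287 and 455 CPM and 215, 191, 198 and 194 CPM, also apart (log2 −0.70, SE 0.12, adjusted p = 0.00106).

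The other 4 receptors did not pass in CD4+ Tc. Cd28 was higher in Tcf7+ cells of 4 of 4 mice (log2 0.28, SE 0.093, adjusted p = 0.101), and Tnfrsf4 lower in 4 of 4 (log2 −0.35, SE 0.11, adjusted p = 0.0865), with 368 to 507 CPM in Tcf7-negative and 282 to 362 CPM in Tcf7+ cells. Icos (log2 0.16, adjusted p = 0.593) and Cd27 (log2 −0.45, adjusted p = 0.173) were higher in the Tcf7+ cells of some mice and lower in those of others.

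Whether the Tcf7 gate differed between the classes was tested as an interaction, added after the data were seen. Of 9216 genes 1.07% passed, 94 with the higher log2 difference in CD8+ Tc and 5 with the lower. Tnfrsf4 (difference of log2 differences 1.26, SE 0.22, adjusted p = 0.00627) and Icos (0.90, SE 0.17, adjusted p = 0.00908) were among the 94. Cd28 (0.57, SE 0.15, adjusted p = 0.0788) and Tnfrsf18 (0.65, SE 0.18, adjusted p = 0.0944) missed the threshold. For Tnfrsf9 (−0.02, SE 0.33) and Tnfrsf1b (−0.03, SE 0.25) the adjusted p-values were 1.00 and 0.997. The Tnfrsf4 call was lost without Havcr2fl/fl replicate 2 (1.22, adjusted p = 0.0568), and the Icos call without that library (0.84, adjusted p = 0.0928), without Havcr2fl/fl;E8icre/+ replicate 1 (0.75, adjusted p = 0.0741) and at 2000 UMIs per cell (0.48, adjusted p = 0.618). With T cells taken by UMIs both calls were lost (adjusted p = 0.0630 for Tnfrsf4 and 0.0623 for Icos).

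**Figure D2:**
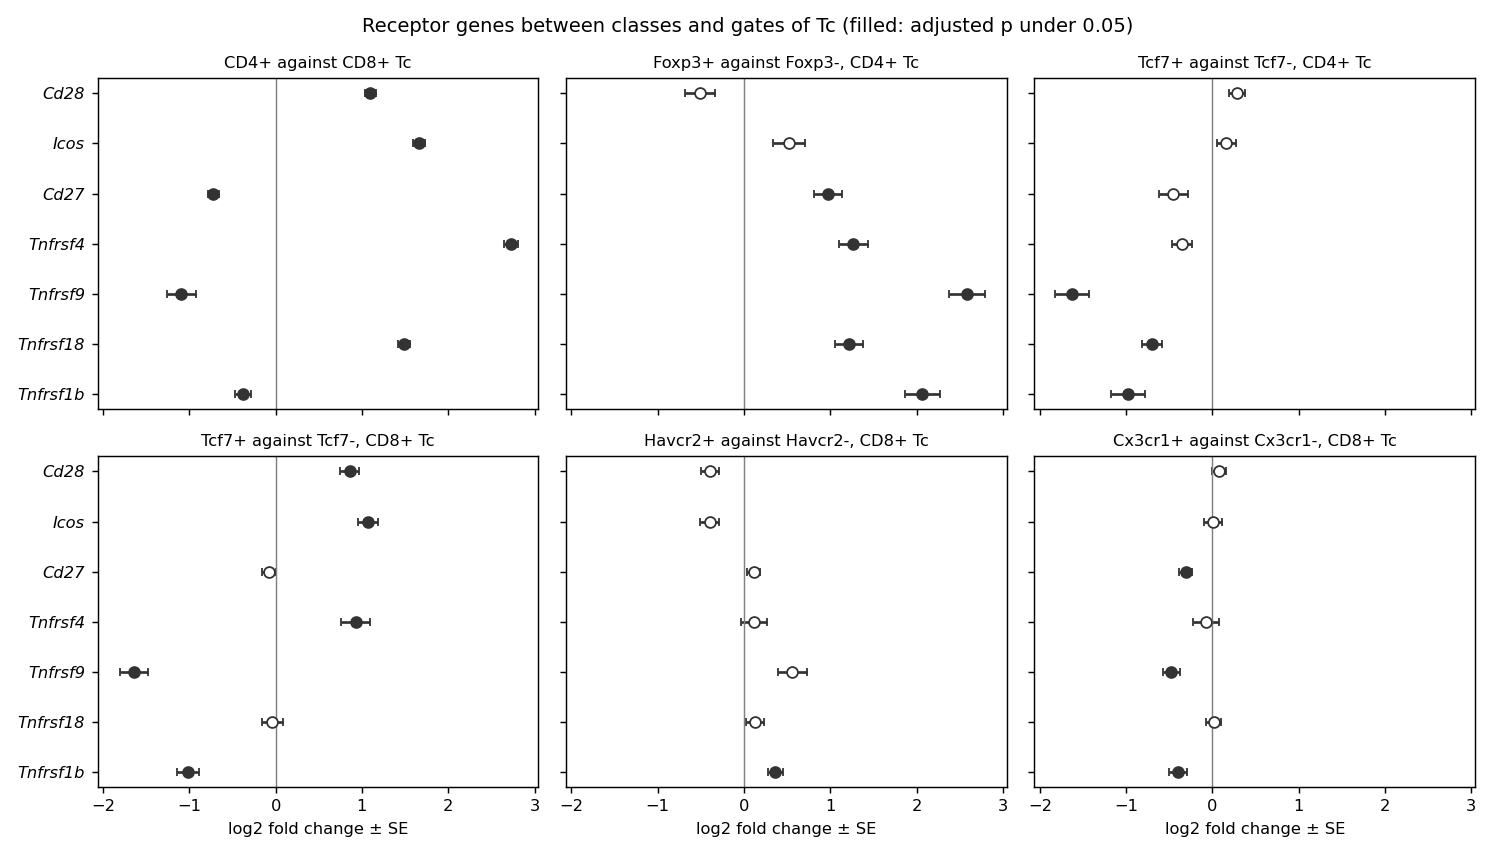
Log2 difference of each receptor in the 6 comparisons within mice (CD4+ against CD8+ Tc, and the Foxp3, Tcf7, Havcr2 and Cx3cr1 gates), with bars of 1 SE; filled points passed the edgeR test at an adjusted p of 0.05. Tnfrsf9 and Tnfrsf1b lie above 0 in the Foxp3 gate and below 0 in both Tcf7 gates, and Tnfrsf4 and Icos lie above 0 in the Tcf7 gate of CD8+ Tc.

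Over the 4 libraries together, the receptors differed little by the Havcr2 and Cx3cr1 gates in CD8+ Tc. The Havcr2 test joined both genotypes, although Havcr2 was targeted for deletion in CD8+ Tc of the Havcr2fl/fl;E8icre/+ libraries. For Tnfrsf9 the genotypes gave unlike values in this gate, listed below. Havcr2, the TIM-3 gene, marks terminally exhausted cells, and Cx3cr1 marks effector cells that leave the lymphoid tissue. Of the 7 receptors 1 passed in the Havcr2 gate, where 3.66% of 9536 genes did, and 3 passed in the Cx3cr1 gate, where 10.4% of 9270 genes did. The receptors' median log2 differences were 0.11 and −0.08, and those of all genes 0.01 and −0.01. The largest change of the 7 in size was 0.56 in the first gate and −0.47 in the second, both of Tnfrsf9.

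With a Havcr2 UMI there were 285, 38, 103 and 339 CD8+ Tc, and without it 3513 in all, with median depths of 5411 and 4672 UMIs. Tnfrsf1b, the receptor that passed, gave 108, 67.5, 86.4 and 77.8 CPM without and 137, 69.1, 112 and 111 CPM with Havcr2 (log2 0.36, SE 0.090, adjusted p = 0.0456). It was higher in the Havcr2+ cells of 4 of 4 mice, the groups overlapped, and the call held in 6 of the 14 other settings tried. Tnfrsf9 gave 161, 105, 98.4 and 142 CPM without and 172, 93.1, 170 and 318 CPM with Havcr2 (log2 0.56, SE 0.17, adjusted p = 0.0956). Within the Havcr2fl/fl libraries alone, given as values without a test, the log2 ratios of Tnfrsf9 were 0.81 and 1.19, and within the Havcr2fl/fl;E8icre/+ libraries 0.06 and −0.13. Without Havcr2fl/fl;E8icre/+ replicate 2, whose Havcr2+ arm held 38 cells, Tnfrsf9 passed (log2 0.66, adjusted p = 0.0164).

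Cd28 (log2 −0.40, SE 0.10, adjusted p = 0.0635) and Icos (log2 −0.39, SE 0.11, adjusted p = 0.0788) were lower in Havcr2+ cells of 4 of 4 mice but did not pass. Cd27, Tnfrsf4 and Tnfrsf18 lay between 0.11 and 0.13 on the log2 scale, with adjusted p-values of 0.501 to 0.790. In the Cx3cr1 gate (577 positive and 3701 negative cells, with median depths of 5598 and 4684 UMIs), Cd27 gave 301, 299, 321 and 323 CPM without and 247, 285, 233 and 232 CPM with Cx3cr1, which did not overlap (log2 −0.31, SE 0.073, adjusted p = 0.00451). Tnfrsf9 (log2 −0.47, SE 0.099, adjusted p = 0.00142) and Tnfrsf1b (log2 −0.40, SE 0.11, adjusted p = 0.0139) were lower in Cx3cr1+ cells within 4 of 4 mice, with overlap between mice. Without Havcr2fl/fl replicate 1 the calls of Cd27 (adjusted p = 0.0570) and Tnfrsf1b (adjusted p = 0.193) were lost.

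Clustering without the receptors among its variable genes placed the CD8+ Tc in 11 and the CD4+ Tc in 6 clusters. A cluster was named from marker genes, and its level of a receptor is a description without a test, since genes that vary with the receptors took part in the clustering. Tnfrsf9 was nevertheless among the 10 leading genes of the terminally exhausted-like CD8+ cluster, and Tnfrsf4 among those of the precursor exhausted-like one. Cluster levels are CPM of the summed UMIs, as the mean ± SD over 4 libraries unless stated.

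In this clustering Tnfrsf4 spanned the clusters 106-fold and Tnfrsf9 110-fold between the highest and lowest mean. Tnfrsf18 spanned them 33.1-fold, Tnfrsf1b 16.2-fold, Icos 15.0-fold, Cd27 5.27-fold and Cd28 4.49-fold. The lowest means of Tnfrsf4, Tnfrsf9 and Tnfrsf18 rest on 10, 7 and 5 UMIs in all, so their folds are rough. For Tnfrsf18 it was that of interferon-like CD8+ cells, 31.5 CPM here and 69.4 CPM at a resolution higher by 0.2. The regulatory-like CD4+ cluster (108 cells, led by Foxp3, Itgae and Ikzf2) held the highest mean of Icos, Tnfrsf4, Tnfrsf9, Tnfrsf18 and Tnfrsf1b. Most neighbors in each order overlapped in their range over libraries: 15 of 16 neighboring pairs for Cd28, Tnfrsf4, Tnfrsf9, Tnfrsf18 and Tnfrsf1b, 13 of 16 for Icos and 16 of 16 for Cd27.

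Cd28 was highest in the precursor memory-like CD4+ cluster (908 cells, led by Sostdc1, with Slamf6 and Tcf7 among its leading genes) at 418 ± 26.4 CPM. Its range did not overlap with the next, the cytotoxic-like CD4+ cluster (331 cells, led by Ccl4, Ccl3 and Ccl5) at 354 ± 32.8 CPM. The precursor exhausted-like cells (424 cells, led by Sostdc1, with Id3, Xcl1 and Tcf7 among the leading genes) came next at 312 ± 65.3 CPM, the highest mean of the CD8+ clusters. The lowest was the terminally exhausted-like CD8+ cluster (784 cells, with Ccl3, Gzma and Nr4a2 among its leading genes) at 93.1 ± 18.4 CPM.

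In regulatory-like cells Cd28 was 243 ± 38.7 CPM, rank 6 in its order. Icos was highest in regulatory-like cells at 479 ± 176 CPM, followed by 330 ± 27.8 CPM in precursor memory-like and 234 ± 43.4 CPM in precursor exhausted-like cells. The ranges of the last of these and the cytotoxic-like CD4+ cluster (231 ± 17.7 CPM) overlapped. In the other CD8+ clusters Icos lay from 32.0 CPM in a cycling-like cluster to 105 CPM in the largest, an unnamed cluster of 1076 cells led by Ckb, Klrb1b and Itga1.

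Cd27 had the flattest pattern beside Cd28, and no neighbors in its order were apart. The highest mean, 516 ± 406 CPM, came from the 36 interferon-like CD8+ cells, whose libraries ranged from 271 to 1123 CPM. The value of 1123 CPM came from the 2 such cells of Havcr2fl/fl replicate 1. The regulatory-like cells followed at 501 ± 90.9 CPM and the effector-like CD8+ cluster (420 cells, with Gzmk and Ccl5) at 427 ± 54.4 CPM. The lowest CD8+ mean was that of the short-term effector-like cells (235 cells, led by Ifitm1, with Ly6c2, Cx3cr1 and Klrg1 among the leading genes) at 148 ± 38.0 CPM. The lowest of all was that of an unnamed CD4+ cluster (251 cells, with Ifitm1, Ly6c2 and Klf2 among its leading genes) at 97.9 ± 30.02 CPM.

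Tnfrsf4 was 1107 ± 321 CPM in regulatory-like cells and did not overlap with the next cluster, the precursor memory-like one at 544 ± 81.8 CPM. Precursor exhausted-like CD8+ cells held 290 ± 111 CPM, while the remaining CD8+ clusters lay between 10.5 CPM in short-term effector-like and 82.2 CPM in erythroid-like cells. Tnfrsf18 ran from 1045 ± 428 CPM in regulatory-like through 384 ± 88.3 CPM in precursor memory-like and 225 ± 78.9 CPM in precursor exhausted-like cells. Its other named and unnamed CD8+ clusters lay between 31.5 and 115 CPM. The place of the precursor memory-like cells depended on the clustering: at a resolution higher by 0.2 they held 252 CPM of Tnfrsf4 and 134 CPM of Tnfrsf18, below both cytotoxic-like CD4+ cells (359 and 280 CPM) and precursor exhausted-like CD8+ cells (293 and 224 CPM). The regulatory-like cells remained highest of these at 1107 and 1044 CPM.

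Tnfrsf9 and Tnfrsf1b put other states next to the regulatory-like cells. Tnfrsf9 was 445 ± 285 CPM there, from 50.7 to 691 CPM over the libraries, and 324 ± 79.4 CPM in terminally exhausted-like CD8+ cells, which lay apart from the next cluster. A pair of cycling-like CD8+ clusters followed at 205 ± 18.5 and 144 ± 50.0 CPM. The lowest means were those of short-term effector-like CD8+ cells (6.32 CPM, 6 UMIs in all) and of the unnamed Ly6c2 cluster of CD4+ Tc (4.05 CPM, 7 UMIs). At the higher resolution the short-term effector-like cells held 28.8 CPM, above the 9.30 CPM of naive or memory-like cells. Tnfrsf1b was 404 ± 55.5 CPM in regulatory-like cells, apart from the 160 ± 37.9 CPM of the terminally exhausted-like ones, and was lowest in naive or memory-like CD8+ cells (150 cells, with Dapl1 and Il7r) at 24.9 ± 5.2 CPM.

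**Figure D3:**
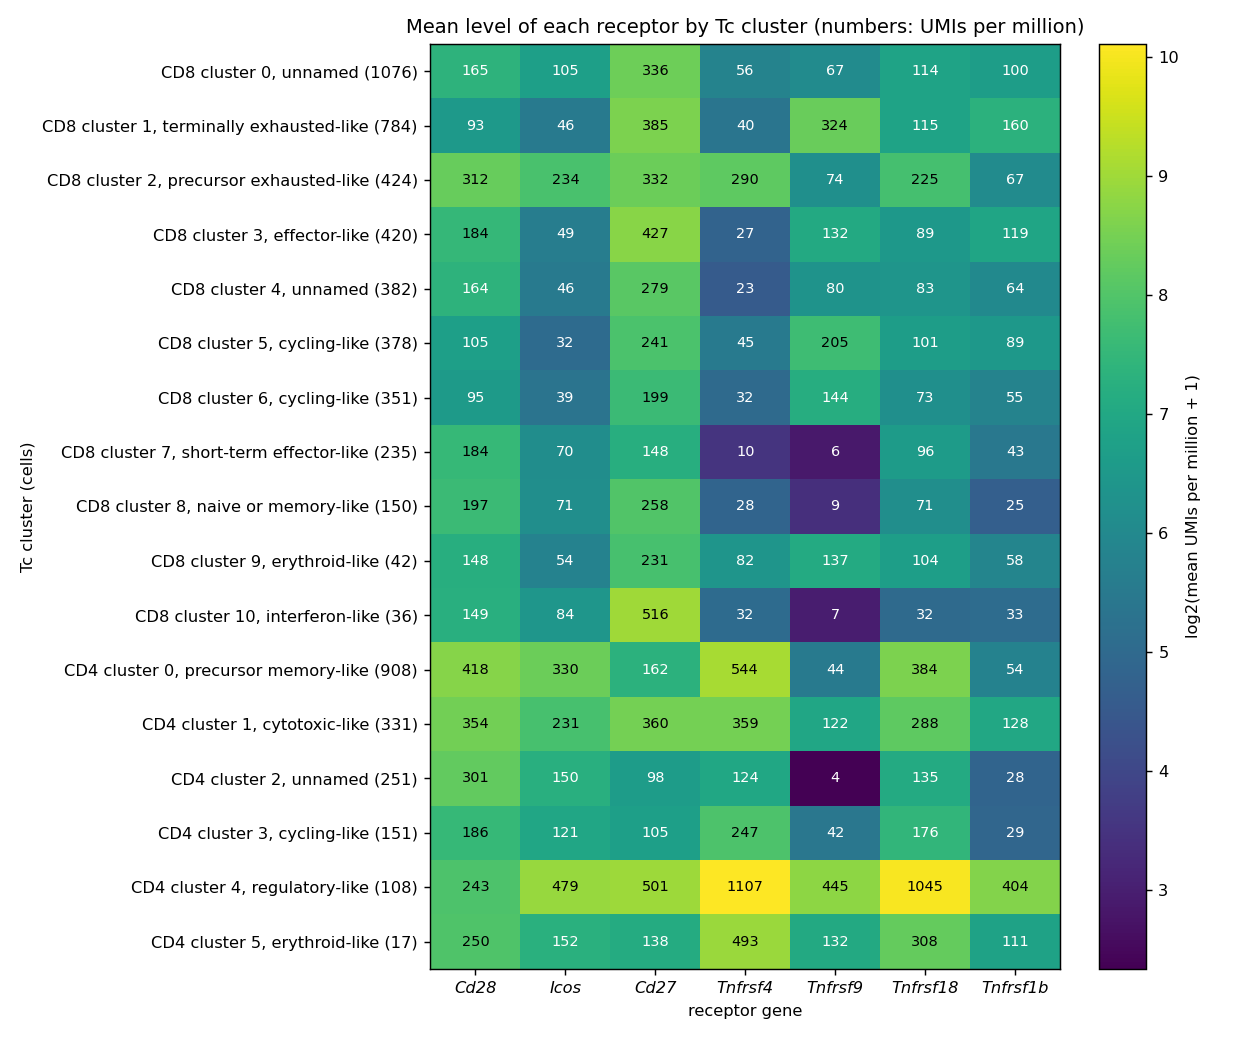
Mean level of each receptor over the libraries (numbers in CPM, colors by log2 of that level + 1) in the 11 CD8+ and 6 CD4+ clusters. The regulatory-like CD4+ cluster holds the highest mean of 5 receptors, precursor exhausted-like cells the highest Cd28, Icos, Tnfrsf4 and Tnfrsf18 among CD8+ clusters, and terminally exhausted-like cells the highest Tnfrsf9 and Tnfrsf1b among them.

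For each receptor the genes closest in pattern were sought over the 17 clusters among 5861 genes, by Pearson's r of log2(CPM + 1). Closest to Tnfrsf4 were Tspan32 (0.946), Cd81 (0.934) and Tiam1 (0.899), to Icos Zbtb7b (0.944), Retreg1 (0.894) and Traf1 (0.880), and to Tnfrsf18 Tmem154 (0.917), Tspan32 (0.907) and Ncoa3 (0.901). Tspan32, a tetraspanin, was thus on the lists of both chromosome 4 neighbors. Zbtb7b encodes ThPOK, the CD4 lineage factor. Closest to Cd28 were Fam53b (0.885), Zfp62 (0.875) and Rnpepl1 (0.857), and to Cd27 Tapbpl (0.885), Cblb (0.874) and Crim1 (0.873). For Tnfrsf1b they were Dnase2a (0.90) and Galnt6 (0.874), and for Tnfrsf9 Snx9 (0.837), Mmd (0.837) and Mapkap1 (0.833). The points share their libraries and their split into classes, so these values describe likeness only.

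How many of the 7 receptors a cell showed was counted at a fixed depth of 2000 UMIs per cell, which left out 206 CD8+ and 88 CD4+ Tc. Of these, 149 CD8+ and 54 CD4+ Tc came from Havcr2fl/fl replicate 2. The Foxp3+ arm then held 28, 57, 6 and 11 cells in the 4 libraries. CD8+ Tc showed 1.48, 1.46, 1.44 and 1.56 receptors on average, Foxp3-negative CD4+ Tc 2.24, 2.10, 2.05 and 2.12, and Foxp3+ CD4+ Tc 4.04, 3.58, 3.50 and 4.82. The libraries of the 3 groups did not overlap. At least 3 receptors were found in 81.1% of Foxp3+ cells, 36.8% of Foxp3-negative CD4+ Tc and 16.8% of CD8+ Tc. Cells outside the T cell clusters showed 0.071 receptors on average, and 93.8% of them none.

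At this depth a Tnfrsf4 UMI was found in 78.6, 78.9, 50.0 and 81.8% of Foxp3+ cells, in 39.5 to 41.9% of Foxp3-negative CD4+ Tc and in 7.20 to 10.9% of CD8+ Tc. In cells outside the T cell clusters the share was 0.246 to 0.838%. Tnfrsf9 UMIs were found in 42.9, 43.9, 16.7 and 54.5% of Foxp3+ cells, in 3.95 to 8.21% of Foxp3-negative CD4+ Tc, in 14.9 to 28.3% of CD8+ Tc and in 0.246 to 0.419% of cells outside. The T cell shares of both genes were thus above those of cells outside the T cell clusters. Before thinning those cells were deeper, with a median of 16910.5 UMIs against 4802.5 in CD8+ and 4520 in CD4+ Tc. Whether they express these genes themselves was not tested, so their shares give no background level for Tc. Among CD8+ clusters the number was highest in precursor exhausted-like cells (2.15) and lowest in short-term effector-like cells (0.909), with 1.69 in terminally exhausted-like cells.

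**Figure D4:**
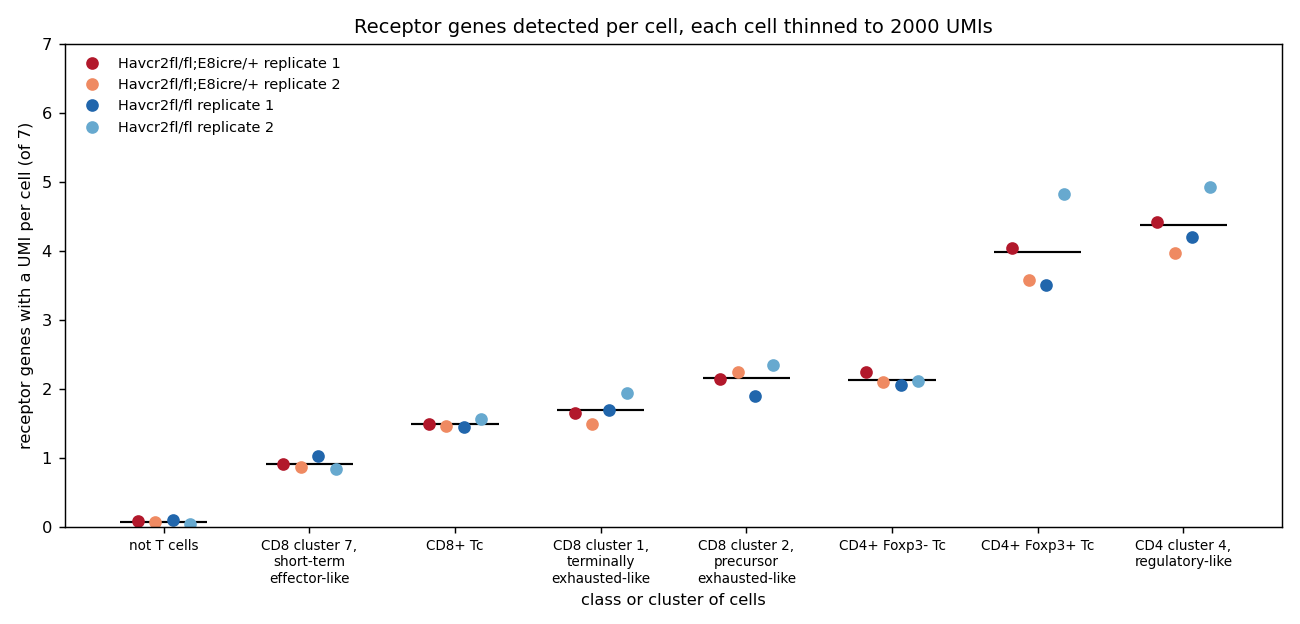
Number of the 7 receptors with a UMI per cell at 2000 UMIs per cell, as the mean of each library (points) and of the 4 libraries (lines), for classes and clusters of cells. Foxp3+ CD4+ Tc lie between 3.50 and 4.82, all above the Foxp3-negative CD4+ Tc at 2.05 to 2.24, and these above CD8+ Tc at 1.44 to 1.56.

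Receptors were found together in CD8+ Tc in some pairs more and in others less often than their shares in the same library multiply to, which is given as a ratio without a test. Tnfrsf4 and Tnfrsf18 were together in 131 of 4072 cells where 69.2 would follow from independence, a ratio of 1.89, and 1.84, 1.80, 2.39 and 1.86 in the libraries. Icos with Tnfrsf4 gave 1.79, Cd28 with Tnfrsf4 1.52 and Cd28 with Icos 1.37. Tnfrsf9 with Cd28 gave 0.687 and with Icos 0.718, the latter above 1 in Havcr2fl/fl replicate 1 (1.26). In 1576 Foxp3-negative CD4+ Tc, Tnfrsf4 with Tnfrsf18 gave 1.33 (315 cells against 237), and Tnfrsf4 with Tnfrsf9, Cd27 with Tnfrsf9 and Cd27 with Tnfrsf1b each gave 1.37. Cd28 with Icos gave 1.09 there, and Icos with Tnfrsf9 1.11 (47 cells against 42.5), where CD8+ Tc lay below 1. By library Icos with Tnfrsf9 gave 1.35, 0.761, 1.53 and 1.21 there, so Havcr2fl/fl;E8icre/+ replicate 2 lay below 1. In 102 Foxp3+ cells the 21 pairs lay between 0.939 and 1.30. A ratio cannot exceed the inverse of the larger share of its pair. Shares of receptors such as Tnfrsf4 were high in Foxp3+ cells, which lowers this limit there. The sizes of the ratios are therefore not compared between the groups of cells.

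The genotypes did not differ in any of the 7 receptors at an adjusted p of 0.05. In CD8+ Tc 0 of 7 passed edgeR's quasi-likelihood test (0.0275% of 10890 genes did), in CD4+ Tc 0 of 7 (0.0103% of 9671 genes), and 0 of 7 in the test of whether the genotype difference itself differs between the classes (0.0184% of 10895 genes). At an unadjusted p of 0.05, 1 of 7 passed in CD8+ Tc, where 279 of 10890 genes did. In CD4+ Tc 0 passed (304 of 9671 genes), and 1 in the difference of classes (482 of 10895 genes). With 2 mice in each genotype, the spread between mice limits what could be seen.

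In CD8+ Tc Tnfrsf18 gave 83.9 and 96.5 CPM in Havcr2fl/fl;E8icre/+ and 105 and 142 CPM in Havcr2fl/fl libraries (log2 −0.46, SE 0.20, unadjusted p = 0.0479, adjusted p = 1.00). It was the 1 receptor in CD8+ Tc whose genotypes did not overlap. A separation of 2 against 2 libraries is common even without a genotype difference, and the share of all genes so separated was not counted. The other receptors' CD8+ values overlapped: Cd28 gave 136 and 168 against 173 and 120 CPM, Icos 59.0 and 93.1 against 81.8 and 65.6 CPM, Cd27 290 and 297 against 296 and 311 CPM. Tnfrsf4 gave 45.2 and 67.5 against 45.5 and 82.3 CPM, Tnfrsf9 163 and 103 against 118 and 199 CPM and Tnfrsf1b 114 and 66.8 against 92.8 and 88.5 CPM. In CD4+ Tc Cd27 was the 1 receptor without overlap, with 190 and 212 CPM in Havcr2fl/fl;E8icre/+ and 178 and 174 CPM in Havcr2fl/fl libraries (log2 0.19, SE 0.20, adjusted p = 1.00). In Foxp3+ cells, given without a genotype test, Icos was 274 and 277 CPM against 411 and 723 CPM and Cd28 247 and 225 CPM against 254 and 344 CPM. The Havcr2fl/fl values rest on 6 and 17 cells, and the other 5 receptors overlapped between genotypes in these cells.

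For Tnfrsf9 the genotype difference in CD8+ Tc minus that in CD4+ Tc was −0.71 on the log2 scale (SE 0.32, unadjusted p = 0.0470, adjusted p = 0.986). Without Havcr2fl/fl;E8icre/+ replicate 1, whose Havcr2 level in CD8+ Tc lay between those of the controls, the value was −1.22. That fit rests on 3 mice with 1 of them in the deleted genotype, whose own spread cannot be measured. Over leaving out each library in turn the value ranged from −1.24 to −0.19. Of the 13 other settings tried, Tnfrsf9 passed edgeR's test in 2, among them a fit without 1 library. Such a fit leaves 1 mouse in a genotype, so it cannot measure the spread between mice there.

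**Figure D5:**
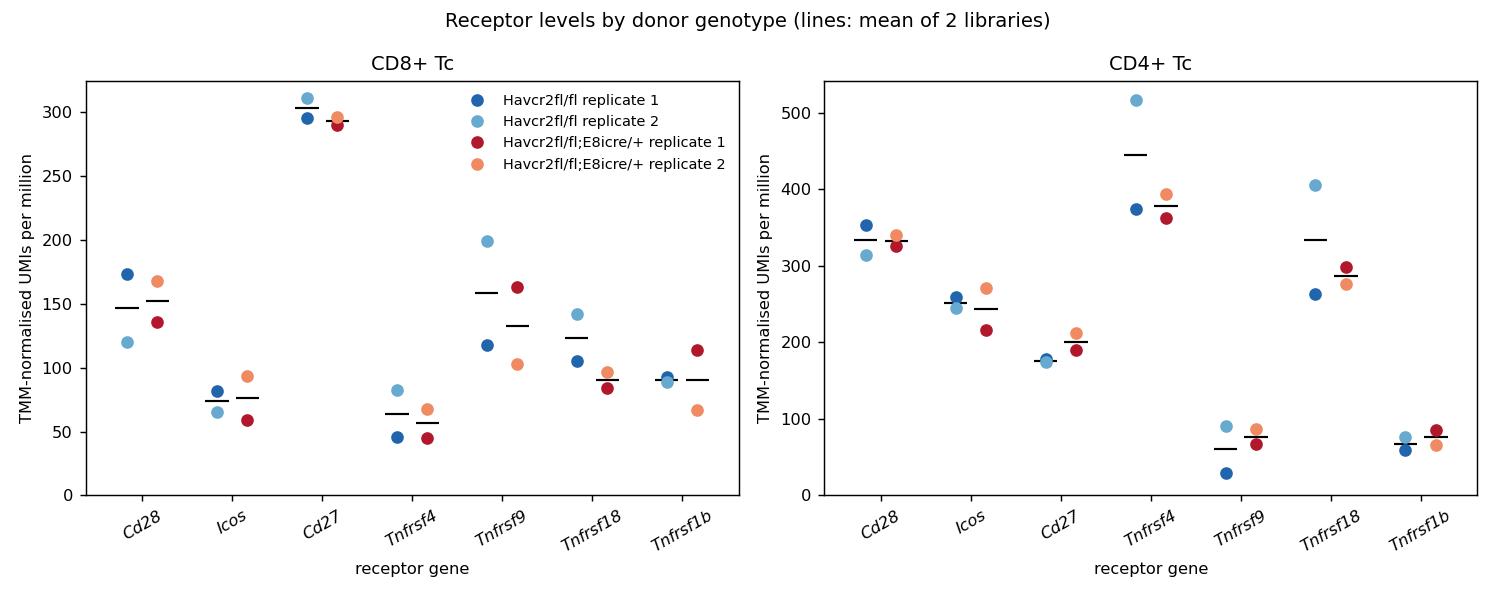
Level of each receptor (TMM-normalized CPM) in CD8+ and CD4+ Tc of each of the 4 libraries (points), with lines at the mean of 2 libraries. Genotypes overlap for 6 of 7 receptors in either class. Those of Tnfrsf18 in CD8+ Tc (83.9 and 96.5 against 105 and 142 CPM) and of Cd27 in CD4+ Tc (190 and 212 against 178 and 174 CPM) do not. Such a separation of 2 against 2 libraries is common even without a genotype difference, and the share of all genes without overlap was not counted.

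The other genes of these pathways were taken from 3 lists of 9 ligands, 18 signaling genes and 11 related receptors. Between CD4+ and CD8+ Tc 7 of 8 tested ligands passed, 5 higher in CD4+ and 2 in CD8+ Tc, with a median log2 difference of 1.24. Cd70, the ligand of CD27, was higher in CD4+ Tc (3.31, adjusted p = 6.06e-05), as were Icosl, the ICOS ligand (1.44), Lta and Tnf, ligands of TNFR2 (1.36 and 1.35), and Tnfsf9, the 4-1BB ligand (1.13). Tnfsf4, the OX40 ligand, was higher in CD8+ Tc (−2.24, adjusted p = 0.00158), opposite to its receptor. All were low, with class means of 1.14 to 24.9 CPM for the 6 ligands named.

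Of the 18 signaling genes 9 were higher and 2 lower in CD4+ Tc, where 24.8% of all genes passed, and the list's median log2 difference was 0.22 against −0.01 for all genes. Nfkbia, an NF-κB target that encodes its inhibitor (1.01), Traf1 (0.89), Nfkb2 (0.86), Relb (0.83) and Nfkb1 (0.81) led, and Traf5, an adaptor of OX40 and CD27, was lower (−0.79). Among 10 tested related receptors 6 were higher and 2 lower, with Cd40lg (3.65), Il2ra (3.02) and Tnfrsf25 (2.25) ahead and Tnfrsf1a, the other TNF receptor, lower (−1.46). Thus the TNFR1 and TNFR2 genes both lay higher in CD8+ Tc by edgeR's test. For Tnfrsf1b, the TNFR2 gene, the classes overlapped between mice, and the call held in 13 of the 17 other settings tried. It was lost in cells thinned to equal depth, with the classes drawn again (log2 −0.11, adjusted p = 0.668, edgeR's test).

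In Foxp3+ cells 0 of 2 tested ligands and 1 of 18 signaling genes passed edgeR's test, no larger a share than the 7.83% of all genes. The signaling gene was Birc2 (0.86, adjusted p = 0.00293), which encodes cIAP1. Of 9 related receptors 2 were higher, Il2ra (3.44) and Ctla4 (2.01), and 4 lower, Cd40lg (−4.83), Tnfrsf25 (−4.67), Cd226 (−3.20) and Btla (−1.82). The fitted values of Cd40lg and Tnfrsf25 rest on 0 to 2.95 and 0 to 6.74 CPM in the Foxp3+ libraries, so their size depends on the prior count.

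In the Tcf7 gate of CD8+ Tc, where 14.3% of all genes passed, Traf1 (0.74), Prkcq (0.67) and Nfkb1 (0.46) were higher and Tnfaip3 (−0.56) and Traf5 (−0.48) lower among signaling genes. Tnfrsf25 (2.34), Cd40lg (1.45) and Fas (0.56) were higher, as was the inhibitory receptor gene Btla, and Tnfrsf1a (−1.45) and Cd226 (−0.76) lower among related receptors, and Cd86 (−0.74) lower among 6 ligands. In the Tcf7 gate of CD4+ Tc (5.88% of all genes), Tnfrsf25 (0.79) and Btla (0.78) were again higher, Il2ra was lower (−1.30), and 0 of 18 signaling genes and 0 of 4 ligands passed edgeR's test. In the Havcr2 gate (3.66% of all genes) Tnfrsf25 (−2.50), Btla (−1.03) and Prkcq (−0.51) were lower and Tnfrsf1a (0.52) higher. For the genotype 0 of the tested genes of the 3 lists passed edgeR's test in CD8+ or CD4+ Tc.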

How the data were processed

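Splenic Tc of 4 mice were profiled by droplet scRNA-Seq (10x Genomics 3′ v3.1), 1 library per mouse. The authors aligned and counted the reads with Cell Ranger 6.1.2 against mm10, per the submitters' processing notes, and deposited UMI counts per gene and barcode. Such counts come from transcript 3′ ends, so levels were not compared between genes. The study's text speaks of sorted donor Tc, while the labels name a pan-T kit. Cells were not selected here by the H-2Kb donor tag, whose median per kept cell was 1751 to 2448 UMIs in the libraries.

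Cells were kept (11632 of 15784) if they had at least 500 genes and 1000 UMIs and no more than 10% of these were mitochondrial, and 125 doublets called by Scrublet (scanpy 1.11.5), 2 to 109 per library, were removed. The low calls in some libraries were checked against removal at 0.8% per 1000 barcodes. Clusters came from Seurat 5.3.0 (2000 variable genes without the receptors, Havcr2, sex-linked and antigen receptor genes, 30 dimensions). T cell clusters had a Cd3d, Cd3e or Cd3g UMI in at least 90% of cells. Clusters were named from at least 3 raised markers. UMIs were summed per library and class or gate and tested with edgeR 4.0.16 (quasi-likelihood, TMM, filterByExpr, Benjamini-Hochberg, threshold 0.05), with the mouse as a block within mice and no block between genotypes. Each gate rests on 1 UMI of its gene, which stayed out of its test; cells without that UMI may still express it. Testing used 1 mouse as the unit. In the genotype tests without a block the p-values measure the spread between mice. In the tests with the mouse as a block they measure how far the difference within a mouse varies over mice. The steps were tested on simulated data. CPM in tests are TMM-normalized, and cluster levels are CPM without TMM. Intervals and shares cover counting error only.

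The receptors, gene lists, gates and tests were chosen with earlier results of these data known. All 7 receptors are named, and of the ligand, signaling and related receptor lists up to 6 genes each per comparison past the threshold, largest change first, and for likeness the 3 highest r per receptor among genes of at least 20 CPM. Some genes are not reported here. Alternatives were DESeq2 1.42.0, its size factors, no filter on low counts, thinning to 2000 UMIs, stricter cells (1000 genes, 5% mitochondrial), doublets kept, T cells taken by UMIs, other blocks and leaving out each library. The thinned tests left out cells under 2000 UMIs and drew classes and gates again from the thinned UMIs. Positions are GRCm38 (GENCODE M21), matching 99.6% of gene IDs, and promoters are RefSeq, GRCm38.p6.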

Additional observations from a re-analysis of the deposited data

Results flagged for a closer look

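In 2 receptors the effect of the same contrast, Tcf7+ against Tcf7-negative Tc, differed between CD8+ and CD4+ Tc by edgeR's quasi-likelihood test of the difference itself. For Tnfrsf4 the CD8+ minus the CD4+ log2 difference was 1.26: the gene was higher in Tcf7+ CD8+ Tc of 3 of 4 mice and lower in Tcf7+ CD4+ Tc of 4 of 4 mice. For Icos it was 0.90, with higher levels in Tcf7+ CD8+ Tc of 4 of 4 mice and in Tcf7+ CD4+ Tc of 2 of 4. Groups of 2 mice per genotype were too small to look for single libraries far from the rest.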

How the results depend on the processing

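Over the settings tried, the tests by genotype and genotype by class left out, 358 of 387 values of receptors that had passed the test passed again and 0 changed sign. Of 319 that had not passed, 15 passed and 23 changed sign. Among the tests left out of these counts, Tnfrsf9 in the genotype by class passed in 2 of 13 settings. Numbers of called genes moved most. Between CD4+ and CD8+ Tc 2555 genes became 1500 with DESeq2, 1334 at 2000 UMIs, 306 in Tcf7+ Tc, 1008 without the mouse block and 1716 to 2168 without 1 library. In the Foxp3 gate 547 became 349, 114 (thinned), 348 (no block) and 282 to 506, with 0 to 1 receptors lower. In the Tcf7 gate of CD4+ Tc 471 became 240, 191 (1 receptor higher), 250 with T cells by UMIs, 153 (no block) and 284 to 436, and 5 receptors were lower with no filter. In that of CD8+ Tc 1383 became 874, 653, 683 (no block) and 775 to 1524. In the Havcr2 gate 349 became 203 (0 receptors higher), 733 with no filter (2 higher, 2 lower), 65 (thinned), 215 with stricter cells (0 higher), 212 by UMIs, 35 without the block (0 higher) and 87 to 636 (0 to 2 higher, 0 to 1 lower), and 0 were higher without erythroid-like cells. In the Cx3cr1 gate 961 became 466, 210 (1 lower), 177 (no block, 0 lower) and 668 to 860 (1 to 3 lower).

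For the genotype in CD8+ Tc 3 genes became 90 with no filter, 1 to 20 without 1 library, 0 with a replicate block and 63 with the numbers crossed. Over genes, the differences of replicate 1 from replicate 2 in each genotype correlated at −0.131 in CD8+ and −0.078 in CD4+ Tc. This gave no sign that equal numbers were pairs, but with 4 libraries it cannot settle the question. In CD4+ Tc 1 gene became 0 with DESeq2's size factors, 5 with DESeq2, 51 with no filter, 4 thinned, 0 with stricter cells, doublets kept, T cells by UMIs, more doublets removed or the replicate block, and 4 to 29. For the genotype by class 2 genes became 59 with no filter (1 receptor lower), 4 with stricter cells, 13 by UMIs, 4 with more doublets removed and 5 to 47 (0 to 1 lower). For the Tcf7 gate by class 99 became 260 with no filter (4 receptors higher), 32 thinned (1 higher), 20 by UMIs (0 higher) and 27 to 103 (0 to 3 higher).

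Values that changed sign had not passed. Thinned, they were Tnfrsf4 in the Havcr2 gate (−0.0033), Cd28 and Icos in the Cx3cr1 gate (−0.19 and −0.091) and Tnfrsf9 and Tnfrsf1b in the Tcf7 gate by class (0.16 and 0.35). By UMIs, Cd28, Icos and Tnfrsf18 in the Cx3cr1 gate were −0.0081, −0.062 and −0.068. With no filter, Icos and Tnfrsf18 there were −0.026 and −0.019. With stricter cells Tnfrsf4 there was 0.031 and Tnfrsf9 in the Tcf7 gate by class 0.094, and with more doublets removed Tnfrsf18 in the Cx3cr1 gate was −0.030. Without 1 library Tnfrsf18 in the Tcf7 gate of CD8+ Tc ran from −0.16 to 0.063, Tnfrsf4 in the Havcr2 gate from −0.16 to 0.32, Icos, Tnfrsf4 and Tnfrsf18 in the Cx3cr1 gate from −0.049 to 0.086, −0.24 to 0.15 and −0.040 to 0.070, and Tnfrsf9 and Tnfrsf1b in the Tcf7 gate by class from −0.27 to 0.24 and −0.21 to 0.16. Of the cluster levels under a higher resolution or with the receptors among the variable genes, 156 stayed within 1 SD and 19 moved further, in precursor memory-like, precursor exhausted-like, short-term effector-like and interferon-like cells. The cause of these moves was not tested. Without the mouse block the calls of Tnfrsf1b between classes (adjusted p = 0.191), of Tnfrsf4 in the Tcf7 gate of CD8+ Tc (0.0589) and of all 3 receptors in the Cx3cr1 gate were lost. The removal of more doublets or of erythroid-like cells, the subsets by Foxp3 or Tcf7, the crossed numbers and the Tcf7 gate by class were added after the data were seen.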

Other observations

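Some cells of the T cell clusters fell into neither class. In 539 Tc no Cd4, Cd8a or Cd8b1 UMI was found, at a median depth of 2973 UMIs, and in 224 Tc UMIs of both classes were found, at a median of 6244 UMIs. Tnfrsf4 was 412 ± 204 CPM (SD, n = 4 libraries) in the former and 310 ± 48.4 CPM in the latter, Icos 223 ± 36.9 and 200 ± 54.5 CPM, and Cd28 305 ± 47.5 and 277 ± 28.6 CPM. Tnfrsf18 was 303 ± 102 and 213 ± 42.3 CPM, Cd27 240 ± 30 and 259 ± 29.5 CPM, Tnfrsf9 139 ± 25.6 and 109 ± 19.1 CPM and Tnfrsf1b 111 ± 25.0 and 76.3 ± 23.7 CPM. At 2000 UMIs per cell the former showed 2.17 and the latter 2.06 of the 7 receptors on average. Erythroid markers summed to 203 to 25304 CPM in the former and 146 to 16630 CPM in the latter, and the 5 B lineage markers to 147 to 881 CPM in the former.

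The ligands Cd80 and Cd86 were found in the Tc themselves, with Cd80 at 22.8 CPM in CD8+ and 23.2 CPM in CD4+ Tc and Cd86 at 17.1 and 10.6 CPM. Cd86 was 215 CPM in a small cluster outside the T cells with Cst3, Cd74, H2-Aa and Xcr1, genes of antigen-presenting cells, among its leading genes. For Tnfsf18, the GITR ligand, 2 UMIs were counted in all CD8+ Tc, 1 in all CD4+ Tc and 0 outside these clusters.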
